A study of Mus musculus with 11 samples.

Results

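The adenylyl cyclases are the membrane enzymes that make cyclic AMP (cAMP) from ATP. The 8 members described here are Adcy1, Adcy2, Adcy3, Adcy5, Adcy6, Adcy7, Adcy8 and Adcy9, chosen by gene symbol, and they are 8 of 30986 rows in a table of RNA fragments that were recovered with FMRP. FMRP binds RNA and is missing in Fragile X syndrome, and the study measured the fragments crosslinked to it in mouse brain at postnatal day 13. The samples compared here were 2 of cerebellum, 3 of cortex and 4 of hippocampus, and cortex and hippocampus together are called forebrain. One hippocampus sample, hippocampus 1+2, is the sum of a pair of libraries that could not be told from repeat counts of one library, and it therefore counts once. A further library, whose labels name cortex in one field and hippocampus in another, was put in no group. All groups were ground in liquid nitrogen and given 3 ultraviolet exposures of 400 mJ at 254 nm before FMRP was immunoprecipitated. No strain, sex, genotype or drug treatment is stated in the labels. The labels also leave unsaid whether each library had its own animals. The p-values therefore reflect only how much these samples vary, which may be technical.

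The catalytic core of an adenylyl cyclase is formed by paired cytoplasmic domains. Its product cAMP acts through protein kinase A, the Rap exchange factors of the Epac type and cyclic nucleotide-gated channels, until phosphodiesterases degrade it. The isoforms differ in their inputs. Adcy1 and Adcy8 are stimulated by calcium and calmodulin and serve synaptic plasticity. Adcy3 is known from olfactory neurons and neuronal cilia, Adcy5 and Adcy6 are inhibited by calcium, Adcy2 and Adcy7 are stimulated further by G protein beta-gamma subunits, and Adcy9 is the most distant member in sequence.

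Because the members share a catalytic core, one stretch of their coding sequence shows how alike their fragments could be. The stretch of 60 bases below lies in the second catalytic domain, within 1 coding exon of each gene, and 36 of its 60 positions carry the same base in all 8 members. It was chosen as the gap-free stretch of the aligned codons with the most such positions. The rest of the coding sequence is therefore less alike. It was read from the GENCODE M21 transcripts on GRCm38, the Genome Reference Consortium name of the build mm10. Capitals mark the bases that differ from Adcy1.
Adcy1 (chr11:7167111-7167170, plus strand): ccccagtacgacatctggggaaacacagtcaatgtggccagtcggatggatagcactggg
Adcy2 (chr13:68625806-68625865, minus strand): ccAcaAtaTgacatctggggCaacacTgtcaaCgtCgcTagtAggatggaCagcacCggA
Adcy3 (chr12:4212126-4212185, plus strand): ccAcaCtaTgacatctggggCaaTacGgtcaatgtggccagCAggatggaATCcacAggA
Adcy5 (chr16:35302314-35302373, plus strand): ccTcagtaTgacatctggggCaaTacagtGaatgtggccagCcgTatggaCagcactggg
Adcy6 (chr15:98592691-98592750, minus strand): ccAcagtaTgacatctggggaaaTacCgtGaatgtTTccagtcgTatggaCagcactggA
Adcy7 (chr8:88327420-88327479, plus strand): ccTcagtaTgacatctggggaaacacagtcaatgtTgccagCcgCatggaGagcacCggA
Adcy8 (chr15:64699514-64699573, minus strand): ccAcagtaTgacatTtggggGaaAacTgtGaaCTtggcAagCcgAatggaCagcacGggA
Adcy9 (chr16:4288357-4288416, minus strand): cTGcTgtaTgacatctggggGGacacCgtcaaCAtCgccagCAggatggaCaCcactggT
The number of differences from Adcy1 ran from 8 in Adcy5 and Adcy7 to 15 in Adcy8 and Adcy9. The longest unbroken run shared with Adcy1 in this window was 26 bases, in Adcy7, and over whole coding sequences the longest run shared by any members was 29 bases, between Adcy1 and Adcy6 and between Adcy5 and Adcy6. Of the 12499 stretches of 30 bases in the Adcy1 transcripts, 0 occur in another adenylyl cyclase, and the highest share among the members was 0.0493%, in Adcy8. Fragments shorter than 30 bases were not covered by this count.

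Adcy1 lies on chromosome 11 (GRCm38, 7063489 to 7178506, plus strand). Its exons cover 12522 bases, and the principal transcript has a coding sequence of 3354 bases and a 3′ untranslated region of 8794 bases. No other gene of the annotation overlaps it. Exons of 3 members overlap those of another gene: Adcy3 shares 1380 bases with Cenpo, Adcy6 shares 605 bases with Gm29331 and Adcy2 shares 189 bases with Gm35161. Whether the authors counted by strand is not given in the sources used here, so the counts of those 3 members are uncertain to that extent. Of their stretches of 30 bases, read on either strand, 20.2% in Adcy3, 8.36% in Adcy6 and 3.85% in Adcy2 also occur in transcripts of genes that are not cyclases. In the other members this share was at most 0.443%, in Adcy7. How fragments that match several genes were counted is likewise not given.

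Library totals of the samples ran from 11898 to 197382 counts. Levels are given as CPM, counts per 1000000 counts of the library, and the limit set by a count of 0 (3 counts) was 15.2 CPM in the deepest sample and 252.1 CPM in cortex 3, the shallowest. The region labels were compared with cell type markers. Summed telencephalic excitatory markers were 419 to 461 CPM in cerebellum and 1816 to 2926 CPM in hippocampus. In cortex they were 672.4 to 2922 CPM, lowest in cortex 3. Slc17a7, most of that sum in cerebellum, averaged 324.7 CPM there, against 366.4 CPM in cortex and 316.1 CPM in hippocampus. Summed hippocampal markers were 988 to 1100 CPM in cerebellum, 168 to 538 CPM in cortex and 638 to 2136 CPM in hippocampus. These sums did not set hippocampus apart from cerebellum. Zbtb20 made up most of them in both, with means of 925.4 CPM in cerebellum and 984.0 CPM in hippocampus. Prox1 did separate the 2 regions, at 50.7 to 94.3 CPM in cerebellum and 144.9 to 278.7 CPM in hippocampus. The ranges of Fibcd1 and Wfs1 overlapped. The summed level of 10 cerebellar granule cell markers was 6024 to 7459 CPM in cerebellum, against 227.9 to 672.4 CPM in cortex and 368.4 to 650.2 CPM in hippocampus. Gabra6, Cbln3, Zic2, Pax6 and Pcp2, which mark cerebellar granule or Purkinje cells, were at 0 counts in cortex. Pax6 and Pcp2 had only 13 counts each in cerebellum. The other granule and Purkinje cell markers had counts in cortex. Ppp1r17 was higher there, at 62.0 CPM from 3 counts, against 20.4 CPM in cerebellum. Calb1 had 28.0 CPM in cerebellum and 29.0 CPM in hippocampus. Cortex 3, hippocampus 3 and hippocampus 4 stood apart from the other 6 samples, with 12.2% to 12.6% of their counts in rows of predicted genes, against 3.10% to 7.49%. No input library and no FMRP-lacking library was analysed here, so the amount of an RNA and its binding by FMRP cannot be told apart, nor can fewer cells of a type and less RNA per cell.

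Adcy1 had the most counts of the 8 members in every sample. Of 3229 counts that the 8 members received over all 11 libraries, 2651 (82.1%) were of Adcy1. Its level was 7700 and 5178 CPM in cerebellum, against 4525, 3155 and 1261 CPM in cortex and 2179, 1261, 729.1 and 2136 CPM in hippocampus. Adcy1 had more counts than any other row of the table in both cerebellum samples, while its rank was 6 to 14 in cortex and 7 to 42 in hippocampus. Both cerebellum samples lay above all 7 forebrain samples, whereas the cortex and hippocampus samples overlapped.

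**Figure D1:**
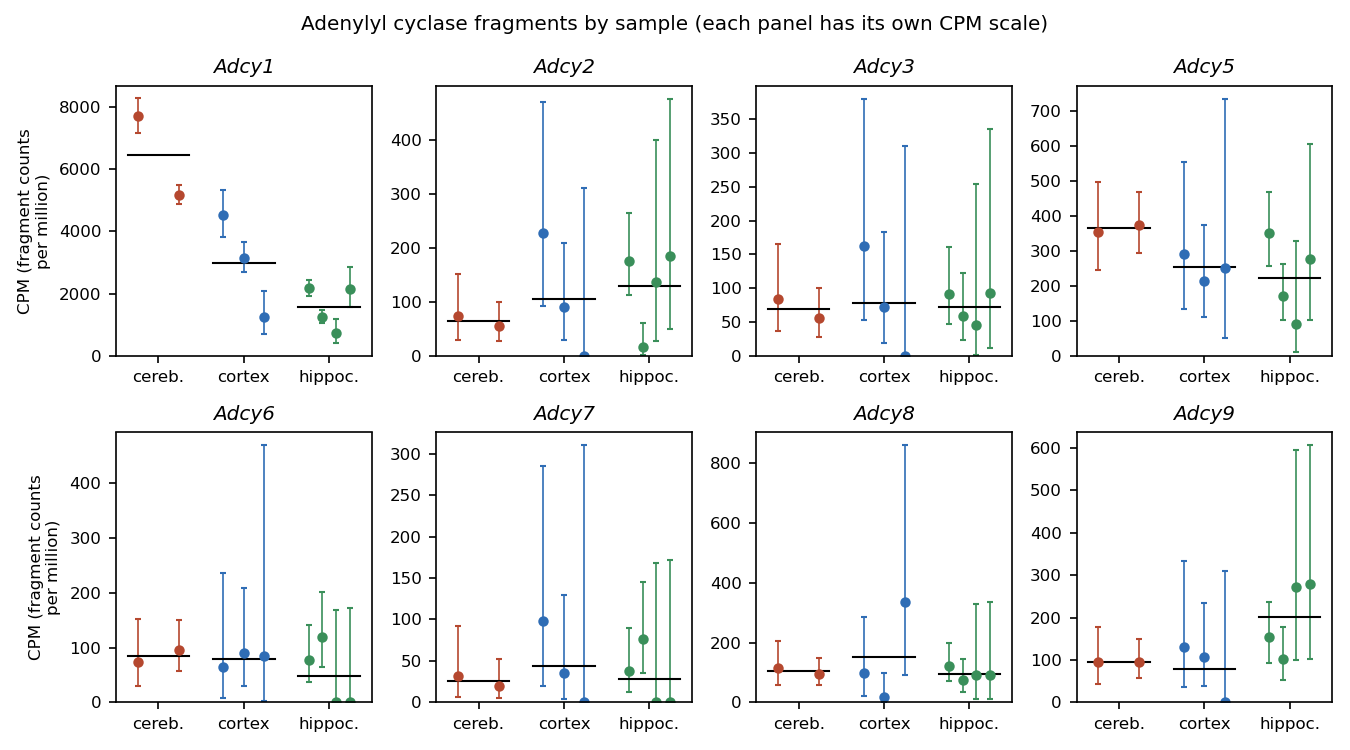
Level of each adenylyl cyclase in each sample, in CPM, grouped by region; each panel has its own scale, each point is 1 sample with its 95% counting interval, and black lines are region means. Adcy1 lies between 5178 and 7700 CPM in cerebellum and between 729.1 and 4525 CPM in forebrain, and no other member passes 374.9 CPM in any sample.

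Mean Adcy1 was 6439 ± 1784 CPM in cerebellum (n = 2, ± SD), against 2980 ± 1639 CPM (n = 3) in cortex and 1577 ± 706 CPM (n = 4) in hippocampus. With the number in the sample titles as a block, edgeR's quasi-likelihood test gave a log2 fold change of 1.32 for cerebellum over forebrain (SE 0.62, unadjusted p = 0.0316, adjusted p = 0.215 over 1720 rows). This difference missed the threshold of 0.05. Without the block it was 1.65 with an edgeR adjusted p of 0.0246, which passed. The test in DESeq2 with the block gave 1.33 with an adjusted p of 0.0124. Over 16 alternative settings the value was positive in 16 and passed in 3, with adjusted p from edgeR or DESeq2 between 0.0124 and 1.

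**Figure D2:**
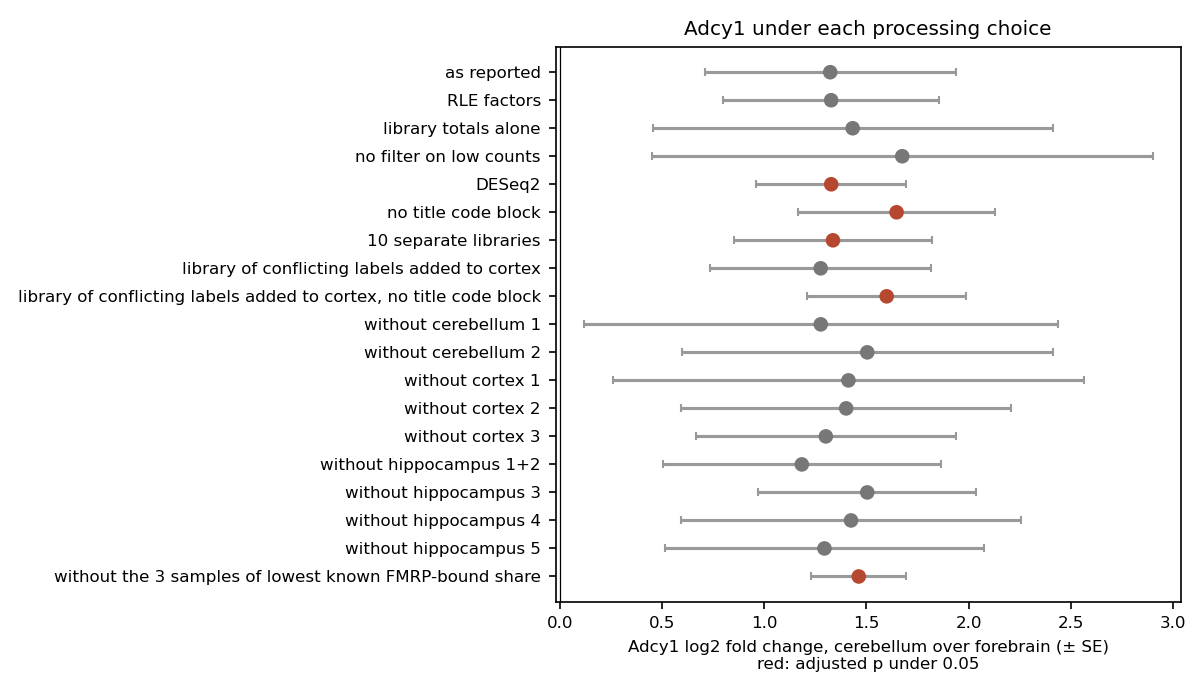
Log2 fold change of Adcy1, cerebellum over forebrain, under each processing choice, with its approximate standard error; red points passed an adjusted p of 0.05. All points lie above 0, between 1.18 and 1.68, and the reported value of 1.32 did not pass.

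Against hippocampus alone, Adcy1 in cerebellum had a log2 fold change of 1.63 (SE 0.63, edgeR adjusted p = 0.102). Here 6 of 16 alternatives passed, among them the fit without hippocampus 3, at 1.83 with an edgeR adjusted p of 0.0296, and the fit with no block, at 1.93 with 0.0285. Without hippocampus 3, cerebellum 2 is alone in its title code, so that under the block this value rests on cerebellum 1 among the cerebellum samples. Another of the 6 added the library of conflicting labels with the block. That library is alone in its title code, so under the block it carries no comparison of regions. Against cortex alone the value was 1.01 (SE 0.73, edgeR adjusted p = 0.623), and 0 of 16 alternatives passed. Leaving out cortex 3, hippocampus 3 and hippocampus 4 together, an alternative chosen after seeing the data, gave 1.46 against forebrain. Under the block that value rests on cerebellum 1 alone among the cerebellum samples. That fit also has fewer residual degrees of freedom than the 4 of the main fit. Its p-value does not measure the spread of cerebellum samples and is not given.

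Cortex and hippocampus were not separated for Adcy1. The log2 fold change of cortex over hippocampus was 0.62 (SE 0.56, edgeR adjusted p = 0.999), positive in 16 of 16 alternatives and past the threshold in 0. A two-sided exact permutation test of mean CPM gave p = 0.0278 for cerebellum against forebrain, the smallest that 36 splits allow, and p = 0.2 for cortex against hippocampus. An unadjusted permutation p under 0.05 was reached by 2.8% of rows in the first comparison and by 2.24% in the second. Adjusted over 13656 rows with at least 10 counts, these exact permutation p-values were 0.990 and 0.952. Within the title codes that hold both regions, the log2 ratio of mean Adcy1 CPM was 1.20 and 2.04 for cerebellum over forebrain, and 1.05 and 0.62 for cortex over hippocampus. The value of 2.04 compares cerebellum 2 with hippocampus 3 alone, since that title code holds no cortex sample. Cortex 2, cortex 3, hippocampus 4 and hippocampus 5 share a title code that holds no cerebellum sample. Cerebellum and cortex meet only in the code of cerebellum 1 and cortex 1. The permutation test and the comparisons of sample ranges ignore the codes, so in them region and code are partly confounded.

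Of the 8 members, 4 had enough counts for the edgeR fit: Adcy1, Adcy2, Adcy5 and Adcy9. In cerebellum against forebrain, 0 of these 4 passed edgeR's adjusted threshold, beside 7.67% of all tested rows. One member, Adcy1, had an unadjusted p under 0.05, and 1 passed in DESeq2. The counts were 0 of 4 against cortex, beside 4.59% of tested rows, and 0 of 4 against hippocampus, beside 6.4%. Against cortex, 0 members were under an unadjusted 0.05 and 0 passed in DESeq2, while against hippocampus Adcy1 did both. In cortex against hippocampus, edgeR called 0 of 4 members and 0% of the 1720 rows, with 68 rows and 0 members under 0.05 before adjustment. DESeq2 called 1 row there and 0 members. In 2 of 8 members, Adcy1 and Adcy5, every cerebellum sample lay above every forebrain sample, beside 3.37% of 13656 rows. With hippocampus 1 and 2 kept as separate libraries, this held for Adcy1 but not for Adcy5. With the summed sample, Adcy1 and Adcy5 lay above all cortex samples, beside 22.9% of rows, and above all hippocampus samples, beside 6.77%. Against cortex, 0 of 8 members lay wholly below, beside 4.91%. Cortex lay wholly above hippocampus in 0 of 8 members, beside 1.27% of rows, and wholly below in 0, beside 3.23%.

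While the region means of Adcy1 lay between 1577 and 6439 CPM, those of the other members summed lay between 791.3 and 811.5 CPM. The other 7 members summed to 811.5 ± 22.8 CPM in cerebellum (n = 2, ± SD), against 791.3 ± 246 CPM (n = 3) in cortex and 800.5 ± 200 CPM (n = 4) in hippocampus. Single forebrain samples ran from 622.2 to 1074 CPM. Within the title code of cerebellum 1 the sum was 827.6 CPM in cerebellum and 1044 CPM in forebrain. Within that of cerebellum 2 it went the other way, at 795.4 and 622.2 CPM. The share of Adcy1 in the counts of the 8 members does not depend on how libraries are scaled. It was 90.3% (95% Wilson interval 88.1 to 92.1) and 86.7% (84.6 to 88.5) in cerebellum. In cortex it was 80.8% (74.3 to 86.0), 83.4% (77.8 to 87.8) and 65.2% (44.9 to 81.2). In hippocampus the share was 68.3% (63.6 to 72.6), 67.0% (60.5 to 72.8), 53.3% (36.1 to 69.8) and 69.7% (57.8 to 79.4). Intervals cover counting error only.

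Both cerebellum shares were above all 7 forebrain shares, and cortex 3, with 15 Adcy1 counts, was the one cortex sample within the hippocampus range. The mean share was 88.5% ± 2.55 in cerebellum and 69.7% ± 10.1 in forebrain (SD, n = 2 and n = 7), a difference of 18.8 percentage points. Leaving out 1 sample at a time gave 16.1 to 21.1 points. In cortex the mean share was 76.5% ± 9.84 (n = 3), against 64.6% ± 7.57 in hippocampus (n = 4), and the difference of 11.9 points ranged from 8.17 to 17.5. Within title codes the differences were 15.8 and 19.7 points for cerebellum over forebrain, and 12.5 and 12.8 for cortex over hippocampus. The difference of 19.7 points is between cerebellum 2 and hippocampus 3 alone. These shares are given as a description, with no test.

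**Figure D3:**
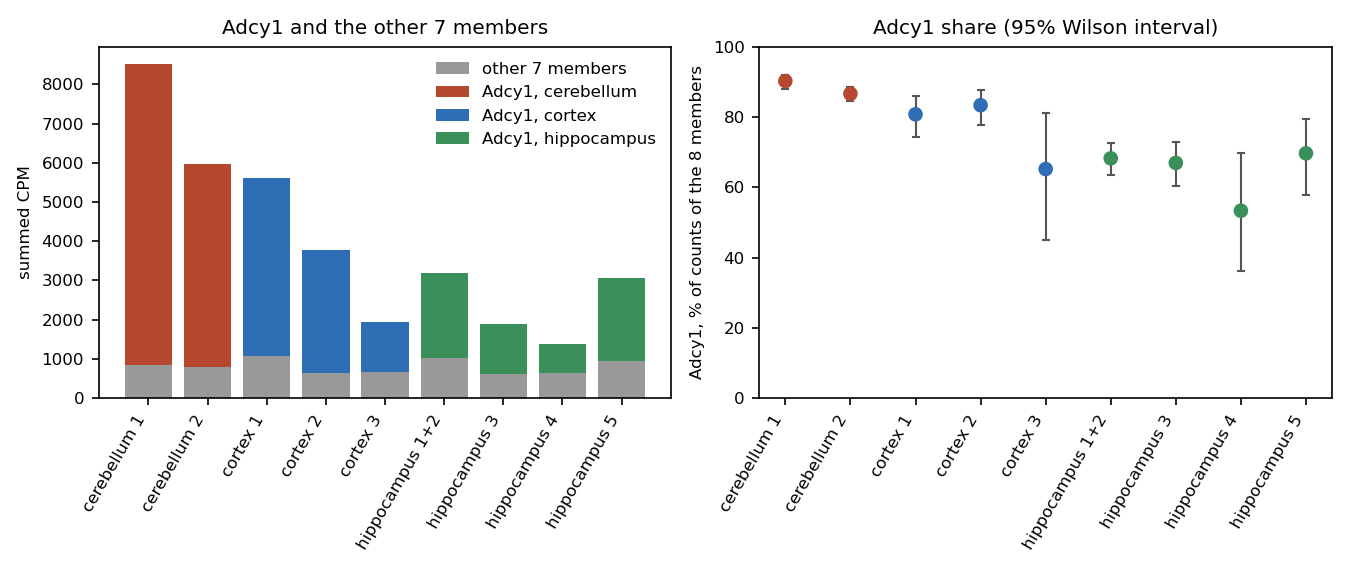
Left, summed CPM of the adenylyl cyclases in each sample, stacked as the other 7 members (grey) and Adcy1 (colour of its region). Right, the share of Adcy1 in the counts of the 8 members with its 95% Wilson interval. The grey part averages 811.5 CPM for cerebellum, 791.3 CPM for cortex and 800.5 CPM for hippocampus, while the share is 86.7% and 90.3% in cerebellum and 53.3% to 83.4% in forebrain.

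Summed cerebellar cell type markers were also higher in cerebellum than in forebrain. The summed Purkinje cell markers were 2933 to 3354 CPM in cerebellum, against 672.4 to 1269 CPM in cortex and 434.7 to 789.6 CPM in hippocampus. Itpr1 made up most of this Purkinje sum, with a mean of 2708 of 3144 CPM in cerebellum. Its mean over the cortex samples was 692.3 CPM, and over the hippocampus samples it was 486.1 CPM. Ppp1r17 was not higher in cerebellum than in cortex, nor Calb1 than in hippocampus. Of 2 tested Purkinje cell markers, edgeR called 1, Itpr1, higher in cerebellum than in forebrain. All 4 tested granule cell markers were called higher in that comparison. The part of either cell type in the Adcy1 level was not tested. A chosen list of mRNAs known to be bound by FMRP took 4.23% to 4.28% of the counts in cerebellum. It took 3.12% to 8.61% in cortex and 2.15% to 8.25% in hippocampus. The list holds none of the cyclases, which does not say whether FMRP is known to bind them. Per 100 counts of the listed mRNAs, Adcy1 had 15.2 ± 4.33 counts in cerebellum (12.1 to 18.2, n = 2), against 3.94 ± 1.33 in forebrain (SD, 2.19 to 5.87, n = 7). This ratio depends on the level of the list as well as on Adcy1.

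Among the calcium-stimulated relatives, Adcy8 was low in all regions and below the filter of the fit. It averaged 105.7 ± 13.4 CPM in cerebellum (n = 2, ± SD), against 150.6 ± 166 CPM (n = 3) in cortex and 95.9 ± 19.3 CPM (n = 4) in hippocampus. The highest value, 336.2 CPM in cortex 3, stands for 4 counts, and the lowest, 17.9 CPM in cortex 2, for 1 count. Adcy3 was likewise untested by edgeR and had 69.8 ± 19.9 CPM in cerebellum, against 78.2 ± 81.6 CPM in cortex and 72.6 ± 23.7 CPM in hippocampus (SD, same n). The regions overlapped for both genes, and the exact permutation p for cerebellum against forebrain was 0.833 for each.

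Adcy5 and Adcy6, the calcium-inhibited pair, are the closest members by protein, with 68.3% identical residues. Adcy5 had 356.2 and 374.9 CPM in cerebellum, against 293.0, 215.1 and 252.1 CPM in cortex and 353.0, 170.5, 91.1 and 278.7 CPM in hippocampus. Both cerebellum samples were above every forebrain sample, although cerebellum 1 and hippocampus 1+2 nearly coincided. This separation rests on the sum: taken alone, hippocampus 1 had 411.8 CPM and hippocampus 2 had 251.4 CPM, and the groups then overlapped. The edgeR log2 fold change for cerebellum over forebrain was 0.42 (SE 0.52, adjusted p = 0.796), and the exact permutation p was 0.0833, or 0.156 with the 10 libraries separate. Adcy5 took 45.1% ± 2.90 of the counts of the 7 members other than Adcy1 in cerebellum, against 33.0% ± 5.23 in cortex and 26.6% ± 8.79 in hippocampus. Adcy1 had 17.7 counts per Adcy5 count in cerebellum on average, against 11.7 in cortex and 7.31 in hippocampus.

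Adcy6 averaged 84.8 ± 16.2 CPM in cerebellum (n = 2, ± SD), against 79.6 ± 12.9 CPM (n = 3) in cortex and 49.0 ± 59.2 CPM (n = 4) in hippocampus. It was at 0 counts in hippocampus 4 and hippocampus 5, whose totals of 21944 and 21531 counts leave room for up to 136.7 and 139.3 CPM. Its regions were therefore not separable at this depth.

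Of the members that respond to beta-gamma subunits, Adcy2 had 62 counts over the 9 samples and Adcy7 had 26. Adcy2 had 73.3 and 55.7 CPM in cerebellum, against 227.9, 89.6 and 0 CPM in cortex and 176.5, 17.0, 136.7 and 185.8 CPM in hippocampus. Samples of each forebrain region lay on both sides of the cerebellum pair, and the edgeR log2 fold change for cerebellum over forebrain was -0.33 (SE 0.89, adjusted p = 0.934). Without cortex 1 it was 0.34. Adcy7 had 25.8 ± 7.89 CPM in cerebellum, against 44.5 ± 49.4 CPM in cortex and 28.8 ± 36.7 CPM in hippocampus (SD, n = 2, 3 and 4). It was at 0 in cortex 3, hippocampus 4 and hippocampus 5.

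Adcy9, like Adcy2, had its highest region mean in hippocampus. Its level was 94.3 and 96.3 CPM in cerebellum, against 130.2, 107.6 and 0 CPM in cortex and 153.5, 102.3, 273.4 and 278.7 CPM in hippocampus. Both cerebellum samples lay below all 4 hippocampus samples, which held for 1 of 8 members and for 5.05% of 13656 rows. The edgeR log2 fold change was -0.79 for cerebellum over hippocampus (SE 0.65, adjusted p = 0.618) and -1.35 for cortex over hippocampus (SE 0.72, unadjusted p = 0.0631, adjusted p = 0.999). The values of 273.4 and 278.7 CPM rest on 6 counts each. Within the title code of cerebellum 1 the log2 ratio of cortex over hippocampus for Adcy9 was -0.24, and within that of cortex 2 it was -2.36.

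Levels of different genes can be compared only per length. Per kilobase of exons, Adcy1 averaged 514.2 ± 142 CPM in cerebellum (n = 2, ± SD), against 238.0 ± 131 CPM (n = 3) in cortex and 125.9 ± 56.4 CPM (n = 4) in hippocampus. It was the first member in all regions on that scale. In cerebellum it stood 10.1 times above the next member, Adcy5, against 6.75 times above Adcy5 in cortex and 3.24 times above Adcy9 in hippocampus. Adcy7 was lowest in each region, at 3.84 CPM per kilobase (cerebellum), 6.61 (cortex) and 4.27 (hippocampus). Per kilobase of the principal transcript the ratios were 10.1, 6.72 and 2.87, to the same next members. With the same CPM divided by coding length, the next member was Adcy5 in every region and the ratios were 19.9, 13.3 and 7.97. That length leaves out the 8794 bases of the Adcy1 3′ untranslated region, while the counts are of whole rows and not of coding fragments. These last ratios are therefore not coding levels. Adcy1 was first by each length.

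**Figure D4:**
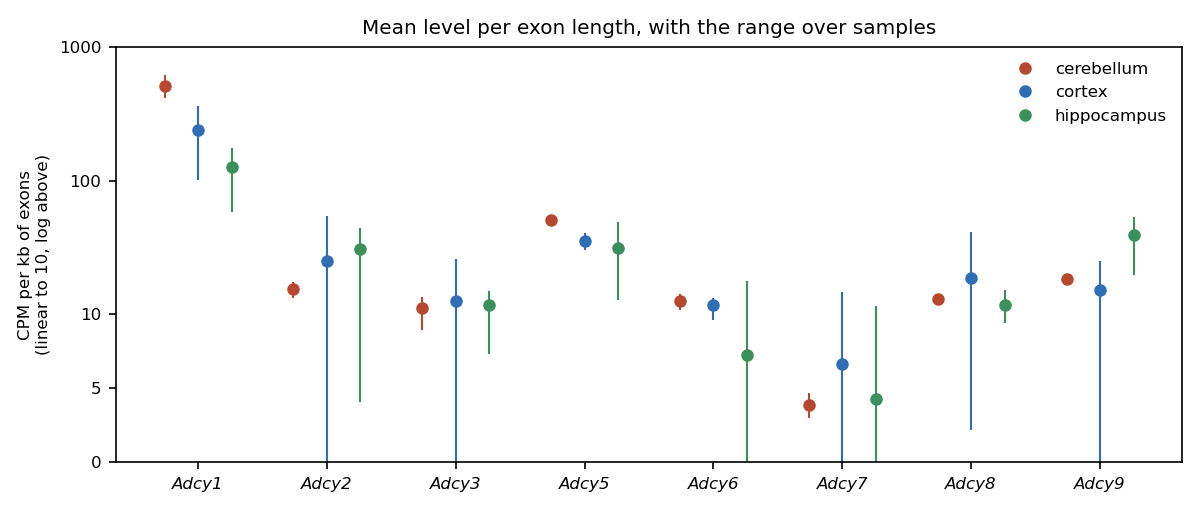
Mean level per kilobase of exons of each adenylyl cyclase, with the range over samples, on an axis that is linear to 10 and logarithmic above. Adcy1 is first in all regions, at 514.2 CPM per kilobase in cerebellum, 238.0 in cortex and 125.9 in hippocampus, and Adcy7 is last.

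Among the tested rows, those whose level followed Adcy1 most closely over the 9 samples were Agpat3, an acyltransferase of phospholipid synthesis (Pearson r = 0.95), D430041D05Rik (0.95), Pik3r3, a regulatory subunit of phosphoinositide 3-kinase (0.93), Glce, an epimerase of heparan sulfate synthesis (0.93), and Kcna2, a voltage-gated potassium channel (0.93). These correlations of log2 CPM are a description over samples that fall into 3 regions and share their depth. Agpat3, for one, averaged 692.3 ± 177 CPM in cerebellum and 221.3 ± 135 CPM in forebrain (SD, n = 2 and n = 7). Of the other tested members, Adcy5 had an r of 0.69 with Adcy1, Adcy2 0.04 and Adcy9 -0.13.

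The rest of the cAMP pathway was described by 8 lists of genes upstream and downstream of the cyclases. They hold 100 genes with a row, of which 36 were tested. In cerebellum against forebrain, 1 of the 36 was called higher and 4 lower by edgeR, 13.9% beside 7.67% of all tested rows (3.9% higher and 3.78% lower). Against cortex 1 was called higher and 2 lower, beside 2.21% and 2.38% of all rows, and against hippocampus 1 higher and 4 lower, beside 3.08% and 3.31%. In cortex against hippocampus, 0 of 36 were called, beside 0% of all rows.

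Upstream, Grm4, a metabotropic glutamate receptor that inhibits cyclases and also one of the granule cell markers, was the single called gene of 7 tested receptors. It had 1351 and 1155 CPM in cerebellum, against 0 to 185.8 CPM in forebrain (median 71.7), and the groups did not overlap. Its log2 fold change was 4.04 (SE 0.54, edgeR adjusted p = 8.43e-11), a call lost without cerebellum 1 and with no filter. Cnr1, the cannabinoid receptor, had 995.2 and 587.7 CPM in cerebellum and 45.6 to 371.6 CPM in forebrain, but its edgeR adjusted p of 0.0773 missed the threshold. Of 3 tested G protein alpha subunits, 1 was called in cerebellum against forebrain: Gnao1, the abundant inhibitory subunit of neurons, fell by 1.69 on the log2 scale (SE 0.49, edgeR adjusted p = 0.0108). Gnao1 had 293.3 and 248.3 CPM in cerebellum and 182.3 to 852.4 CPM in forebrain, which overlap, and only 5 of 16 alternatives kept the call. Leaving out either cerebellum sample, cortex 1, cortex 2, or hippocampus 3, 4 or 5 ended the call, as did library totals alone, no filter, DESeq2 and the fit with no block, where the value was -0.90. Gabbr1, a subunit of the GABA-B receptor, had a value of -0.22. Gnal, the olfactory and striatal stimulatory subunit, had a value of 0.18 and was not called.

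Calmodulin, the calcium sensor that stimulates Adcy1, heads a list of 4 tested genes. Calm3, which encodes it, had 83.8 and 136.8 CPM in cerebellum and 191.9 to 1597 CPM in forebrain, with no overlap and an edgeR adjusted p of 0.0507, just outside the threshold. Nrgn, a neuronal protein that binds calmodulin and one of the telencephalic markers, had 0 and 15.2 CPM in cerebellum, against 84.0 to 340.6 CPM in forebrain. It fell by 4.95 on the log2 scale (SE 0.89, edgeR adjusted p = 5.78e-06), a call lost without cerebellum 1 and with no filter, and the alternatives ran from -6.73 to -4.16.

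Downstream, 2 protein kinase A genes were tested, and in cerebellum Prkar1b, a regulatory subunit of neurons, fell by 3.03 on the log2 scale (SE 0.93, edgeR adjusted p = 0.0189). It had 0 and 25.3 CPM in cerebellum, against 53.7 to 510.9 CPM in forebrain, from 5 counts in cerebellum, and the call was lost without cerebellum 1, cerebellum 2, cortex 1 or hippocampus 3, with library totals alone and with no filter. The alternatives ran from -5.52 to -2.41. Of 5 tested phosphodiesterases, Pde2a, which degrades both cAMP and cGMP and is named in the title of the study, had 83.8 and 91.2 CPM in cerebellum. In forebrain it had 68.2 to 1400 CPM, with hippocampus 3 alone below the cerebellum samples. It fell by 2.39 on the log2 scale (SE 0.61, edgeR adjusted p = 0.00317), a call lost without cerebellum 1, cortex 1 or hippocampus 5, with library totals alone and with no filter on low counts. Over the alternatives the value ran from -3.67 without hippocampus 3 to -0.33 without cerebellum 1. Pde4d, at -0.53, was not called.

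None of 8 tested A-kinase anchoring proteins, 3 tested genes of CREB and its coactivators and 4 other cAMP effectors was called by edgeR in cerebellum against forebrain. The most abundant of them had log2 fold changes of -0.77 (Map2), 0.68 (Nbea), 0.52 (Crebbp), 0.44 (Ep300), -0.51 (Rapgef2) and -0.13 (Rapgef4). Median log2 fold changes of the 8 lists, from -2.04 for the 2 protein kinase A genes to 0.52 for CREB and its coactivators, stand beside a median of 0.002 over all tested rows and 0.15 over the 4 tested cyclases.

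**Figure D5:**
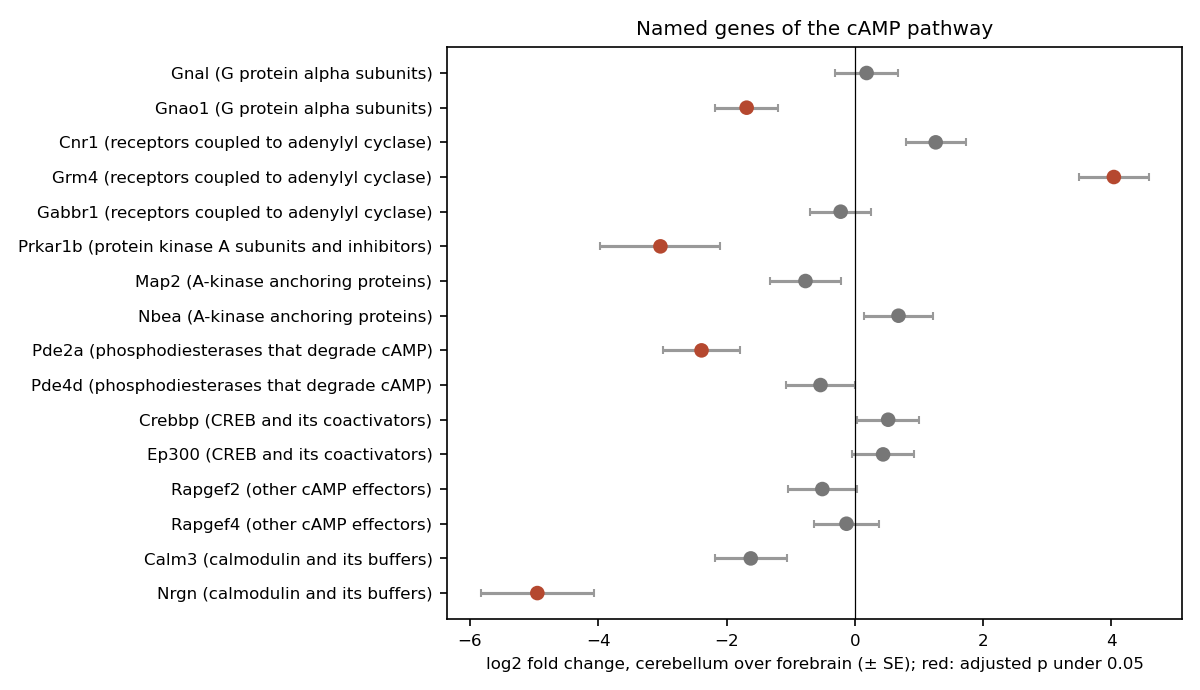
Log2 fold change, cerebellum over forebrain, of the tested cAMP pathway genes named in the text, with approximate standard errors; red points passed an adjusted p of 0.05. Grm4 at 4.04 is the one gene called higher, and Gnao1, Pde2a, Prkar1b and Nrgn are called lower, from -1.69 to -4.95.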

How the data were processed

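The authors deposited whole-number fragment counts per gene symbol for 11 libraries, used here as deposited. The submitters' processing notes name mm10, Bowtie 0.12.7 and Picard; the counter, annotation, strand use and duplicate removal are not given in these sources. CPM were computed on library totals of 11898 to 197382 counts, so shallow libraries carry wider counting error (95% intervals). Hippocampus 1 and 2 (ratio of chi-square to degrees of freedom 1.03 over 1873 rows, p = 0.191; other pairs 1.51 to 22.1) were summed. The library of conflicting labels entered alternatives only.

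edgeR 4.0.16 (R 4.3.3) was fitted to 9 samples with TMM factors, filterByExpr by region and the number in the sample titles as a block (4 residual degrees of freedom), with Benjamini-Hochberg adjustment over 1720 rows. The SE is the absolute log2 fold change over the square root of F, which is approximate. The labels do not explain the title numbers; deviations correlated with a median r of 0.13 over 8 pairs of one number and -0.05 over 18 other pairs. With 2 cerebellum samples, their deviations are exact opposites, which fixes part of this contrast, and it does not establish a pairing. A two-sided exact permutation test (scipy 1.17.1) compared mean CPM. DESeq2 1.42.0, other scalings, no filter and samples left out were alternatives. Scripts were tested on simulated data.

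Gene models are GENCODE M21. Members and lists were chosen with earlier results of these data known. All members, the called and the 2 most abundant genes of each pathway list, and the 5 rows most correlated with Adcy1 are named, except 1 pathway gene that is not reported here. A permutation test of the Adcy1 share was planned and run; its p was left out after it had been seen, because the share is a score over chosen members.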

Additional observations from a re-analysis of the deposited data

Results flagged for a closer look

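The Adcy1 share of adenylyl cyclase counts in hippocampus 4, 53.3% (95% Wilson interval 36.1 to 69.8), lay far below the other hippocampus samples, at 67.0% to 69.7%. Its gap to the nearest sample was 0.833 of the range of the group, against a critical value of 0.829 for 4 samples. Chance flags about 1 in 20 groups, and 9 groups were examined. The share rests on 16 Adcy1 counts of 30, and its interval covers the other 3 values.

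The library of conflicting labels, which entered alternatives only, had 4 members above the 98.9 CPM that a count of 0 allows at its total of 30344 counts. Adcy1 was at 2307 CPM, Adcy5 at 263.6 CPM, Adcy6 at 131.8 CPM and Adcy9 at 164.8 CPM. Its Adcy1 share was 72.2% (95% Wilson interval 62.5 to 80.1).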

How the results depend on the processing

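The Adcy1 log2 fold change kept its sign in 16 of 16 alternatives in each of the 4 comparisons, but its call depended on the setting. For cerebellum over forebrain it passed with DESeq2 (1.33), no replicate block (1.65) and 10 separate libraries (1.34), and, in alternatives added after seeing the data, with the library of conflicting labels added to cortex and no block (1.60) and without the 3 samples of lowest known FMRP-bound share (1.46). Leaving out 1 sample gave 1.18 to 1.5. For cerebellum over hippocampus it passed with RLE factors (1.65), DESeq2 (1.65), no block (1.93), 10 libraries (1.64), the conflicting library added with the block (1.56) or without (1.85), and without the 3 low samples (1.81); leaving out 1 sample gave 1.42 to 1.83 (1.54 to 1.83 apart from hippocampus 1+2). Under the block the conflicting library is alone in its title code and carries no comparison of regions. That fit tested 1215 rows instead of 1720. For cerebellum over cortex, Adcy1 passed without the 3 low samples (1.11). Under the block, every value without the 3 low samples rests on cerebellum 1 alone among the cerebellum samples. That fit has fewer residual degrees of freedom than the 4 of the main fit, so its passes do not measure the spread of cerebellum samples. Why the call depended on the setting was not tested. The Adcy1 share kept its direction in all alternatives.

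Other members changed sign, none of them called in any setting shown. Adcy2 over forebrain was 0.34 without cortex 1 and down to -0.43 without another sample, and over cortex 0.12 with no filter, 0.014 with DESeq2 and 0.97 without cortex 1 (lowest -0.34). Adcy9 over forebrain was 0.0096 with library totals, 0.18 with no filter, 0.16 without cerebellum 1 and 0.32 without cortex 1 (lowest -0.40 without hippocampus 1+2, then -0.21 without hippocampus 3), and over cortex -0.097 with the conflicting library and no block. Adcy5 in cortex over hippocampus was 0.14 with library totals, 0.057 with no filter, 0.24 without cortex 1 and 0.029 without hippocampus 5 (lowest -0.27).

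Differences in mean CPM also turned. In cerebellum minus forebrain, Adcy3 was 8.86 without cerebellum 2 and 9.45 without cortex 1 (lowest -19.2), Adcy7 0.691 without cortex 1 (lowest -15.6), and Adcy8 22.6 without cortex 3 (lowest -30.5) and 22.9 without the 3 low samples. In cortex minus hippocampus, TMM factors gave -16.0 for Adcy3, -14.2 for Adcy5 and -3.82 for Adcy7. Without cortex 1, Adcy3 was -36.7 and Adcy7 -10.8, and without cortex 3, Adcy2 was 29.7 and Adcy8 -38.1. Without hippocampus 4, Adcy3 was -3.39 and Adcy5 -14.0, and without the 3 low samples, Adcy5 was -61.8 and Adcy8 -50.0. With other samples left out Adcy2 reached -84.2, Adcy3 44.7, Adcy5 73.3 (49.2 apart from hippocampus 1+2), Adcy7 38.0 and Adcy8 121.0.

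Counts of called rows moved most. Against forebrain, 132 became 54 with library totals, 1 with no filter, 87 with DESeq2 and 215 without the 3 low samples, and 2 to 176 with 1 sample left out (2 without cerebellum 1, 17 without cerebellum 2, 15 without cortex 1, 81 without hippocampus 1+2). Against cortex, 79 became 16, 0, 43 and 142 in the same settings, 130 with the conflicting library and no block, and 0 to 117 (0 without cerebellum 1, 12 without cerebellum 2, 2 without cortex 1, 28 without cortex 2 or hippocampus 5, 18 without hippocampus 4). Against hippocampus, 110 became 45, 0, 70 and 185, 187 with 10 libraries, and 5 to 191 (10 without cerebellum 1, 5 without cerebellum 2, 58 without cortex 1, 191 without cortex 3, 42 without hippocampus 1+2, 70 without hippocampus 3 or 5). Without the replicate block the counts were 156, 114 and 83. In cortex against hippocampus, 0 became 1 with RLE factors, DESeq2, 10 libraries and the conflicting library with or without the block, 3 without the 3 low samples, and 0 to 1 with 1 sample left out. Library totals alone moved the median log2 fold change of all rows to 0.12 against forebrain, 0.23 against hippocampus and 0.24 for cortex over hippocampus. Without 1 cerebellum sample the remaining one is assumed to vary like the other regions.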

Other observations

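A further 2 adenylyl cyclases with a row are not members. Adcy4 had 8 counts over the 9 samples, and Adcy10, the soluble cyclase that bicarbonate stimulates, had 30. Adcy10 averaged 15.5 ± 7.65 CPM in cerebellum and 78.2 ± 72.0 CPM in forebrain (SD, n = 2 and n = 7), with an exact permutation p of 0.278, and the groups overlapped.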
